A study of Mus musculus with 15 samples.

Results

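Etv1, Etv4 and Etv5 form the PEA3 group of ETS transcription factors, and their transcripts were followed in cultured neural stem cells as the cells were taken from growth medium into differentiation. The members were all probe sets whose gene symbol is Etv1, Etv4 or Etv5, which gave 3 genes and 5 probe sets among 12394 genes with a named probe set on the array. The cells came from the subventricular zone, the layer along the lateral ventricles that holds stem cells in the adult brain, of female C57Bl6/J mice aged 6 months. They were grown as neurospheres, floating clusters of stem cells and progenitors, and used at passages 5 to 7. The undifferentiated group was kept in medium with the growth factors bFGF and EGF. The other 2 groups were taken 12 h and 24 h after these factors had been left out, in medium with 5% foetal calf serum on poly-D-lysine. Each group had 5 samples with 1 Affymetrix mouse array each. Since loss of the growth factors, serum and the coated surface coincided, what each of them did cannot be told apart. The labels do not say whether the 5 samples per group were separate cultures. The tests therefore cover the spread among these samples alone, and that spread may be technical.

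As background, PEA3 factors are immediate readouts of receptor tyrosine kinase signalling. Fibroblast growth factor and EGF receptors pass their signal through Ras, Raf and the kinase ERK. ERK relieves the repressor Cic from target genes, PEA3 genes among them, and also phosphorylates the PEA3 proteins themselves. The ubiquitin ligase that contains Cop1 and Det1 marks PEA3 proteins for destruction. Etv1 in neurons also serves as a factor that sets cell identity, for example in olfactory bulb interneurons that descend from the subventricular zone.

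In assembly GRCm38.p6, Etv4 lies on chromosome 11 from 101769747 to 101785310, Etv5 on chromosome 16 from 22381313 to 22439570 and Etv1 on chromosome 12 from 38780082 to 38870483. Etv4 was read by the probe set 1423232_at. Etv5 was read by 1450082_s_at and 1420998_at, and Etv1 by 1422607_at and 1450684_at. The platform annotation assigns both Etv1 probe sets also to the pseudogene Gm5454 on chromosome 13, from 103356181 to 103358567. They were named Etv1 through their accession, which RefSeq gives to Etv1 alone, and signal from the gene and from the pseudogene cannot be told apart.

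RefSeq start site windows, from 250 bases before to 50 bases after a start, were at hand for Etv5 and Etv1, with 2 windows each. The 250 bases before 1 start of each are shown. Cic is known to bind octamers of the kind TGAATGAA and close variants of it. The Etv1 stretch ends at the annotated 5′ end of its gene, while the Etv5 stretch belongs to a start inside its gene. The pair is therefore not like for like and does not compare a called gene with an uncalled one. The Etv5 stretch is chr16:22438369-22438618 on the minus strand and the Etv1 stretch is chr12:38779832-38780081 on the plus strand, both in GRCm38.p6. Capitals mark TGAATGGG on either strand.
Etv5: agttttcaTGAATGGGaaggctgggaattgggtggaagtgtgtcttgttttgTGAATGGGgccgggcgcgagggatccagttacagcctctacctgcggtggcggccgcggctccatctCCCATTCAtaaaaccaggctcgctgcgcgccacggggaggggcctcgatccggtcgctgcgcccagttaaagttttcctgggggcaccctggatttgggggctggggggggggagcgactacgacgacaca
Etv1: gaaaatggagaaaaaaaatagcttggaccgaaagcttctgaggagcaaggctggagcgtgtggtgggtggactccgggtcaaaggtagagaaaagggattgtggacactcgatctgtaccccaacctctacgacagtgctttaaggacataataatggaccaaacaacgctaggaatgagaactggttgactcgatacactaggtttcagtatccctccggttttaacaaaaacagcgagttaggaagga

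The Etv5 window shown held 3 copies of TGAATGGG, which begin 242, 198 and 131 bases before the start, the last of them on the opposite strand. This octamer was added to the search after the Etv5 sequence had been read, so its presence there is a description. Among 32851 windows of all genes, 1.08% held it, and the 1 window with 3 copies or more was this one. The other Etv5 window, chr16:22439521-22439820 at the annotated 5′ end of the gene, and both Etv1 windows held 0 copies. None of the 4 windows of Etv5 and Etv1 held the Cic octamers TGAATGAA or TGAATGGA, the ETS core CCGGAA, the AP-1 site TGANTCA or the cAMP response element TGACGTCA. These occur on either strand in 1.3%, 1.21%, 14.9%, 7.81% and 1.79% of all windows. A match names letters in a window and not a bound site, and the promoter of Etv4 was not analysed here.

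The labels leave questions about single arrays. Titles and array file names carry codes that disagree for 13 of 15 samples, 8 of which would change group, and the titles were followed. The file codes rise steadily in the order in which the samples are listed, while the title codes do not. Which of them is right was not tested. The title codes carry 3 suffixes, called A, B and C here, and fall into runs of consecutive numbers that mostly hold 1 array of each group. The 12 h replicates 3 and 4, both of suffix B, were the closest arrays of all, with an SD of 0.147 for their log2 differences across probe sets against 0.236 for the next closest pair. The 3'/5' ratio of the actin control probe sets, a sign of RNA quality, was 1.95 ± 0.238 (SD, n = 5) in undifferentiated cells, 2.36 ± 0.148 at 12 h and 2.78 ± 0.365 at 24 h. It did not overlap between undifferentiated and 24 h arrays, so it moved with every 24 h difference below. All 9 neural stem and progenitor markers on the array, Nes and Sox2 among them, were above the level used for testing. So were 6 of 6 astrocyte, 5 of 5 oligodendrocyte lineage, 2 of 2 ependymal and 3 of 6 neuronal markers. That level applied to the mean of all 15 arrays, differentiated ones included, so passing it does not single out stem cells. By contrast, 0 of 6 microglial and 0 of 6 endothelial markers passed it, and 1 of 6 pericyte and fibroblast markers, Pdgfrb.

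Etv4 and Etv5 fell within 24 h, and Etv1 did not change by the test used. In the limma fit across 7910 genes, Etv4 was 7.04-fold lower at 24 h than in undifferentiated cells (-2.82 ± 0.39 log2, SE, adjusted p = 0.00019). Etv5 was 6.21-fold lower (-2.64 ± 0.47 log2, adjusted p = 0.000927). These were the 11th and 21st lowest changes among the 7910 genes. Of all genes tested at 24 h, 19.4% were called lower and 12.7% higher, so a call alone was common. For bulk RNA, fewer cells that express a gene and less transcript per cell cannot be told apart.

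**Figure D1:**
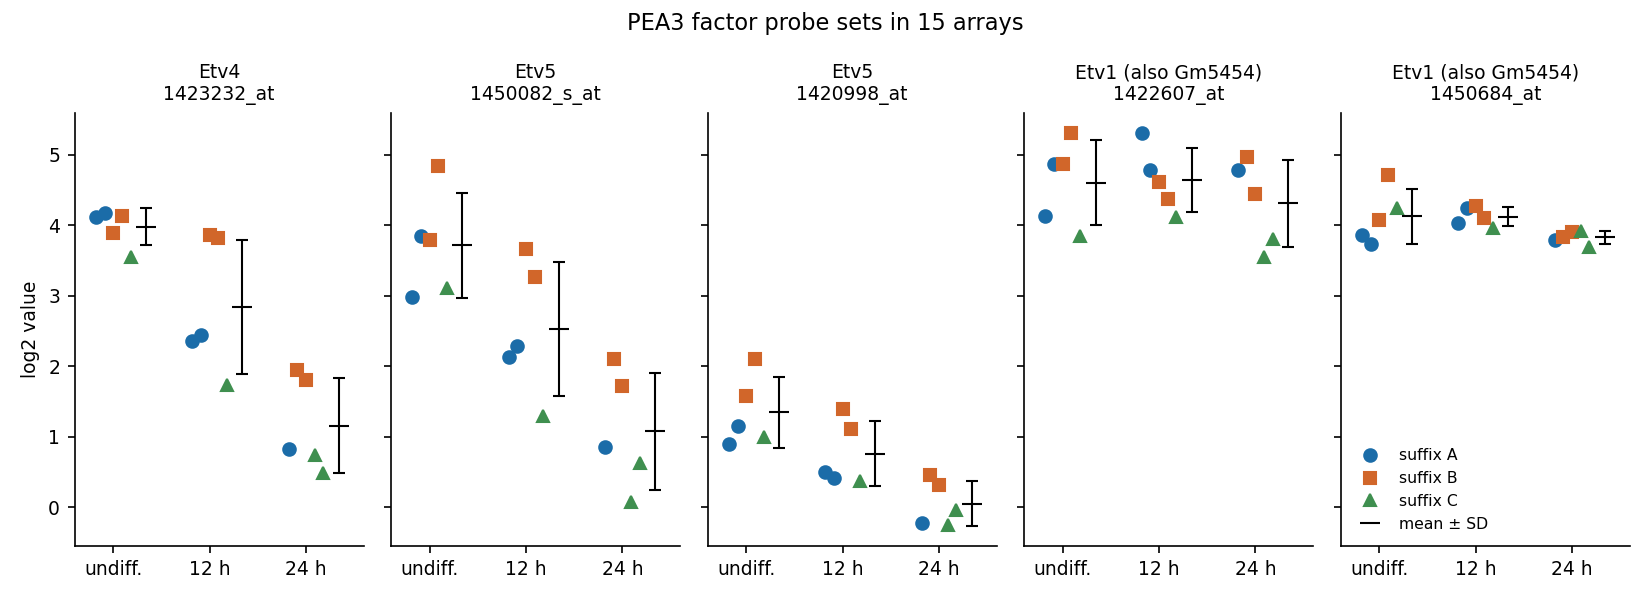
Log2 values of the 5 PEA3 probe sets (vertical axis) in each array of the 3 groups (horizontal axis), with the title code suffix as symbol and the mean ± SD of 5 arrays beside each group. The 24 h arrays of Etv4 and of both Etv5 probe sets lie below every undifferentiated array, while the Etv1 groups overlap between these times.

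Etv4, first described as the PEA3 protein itself and a factor that drives migration and branching, had the tightest starting level. The undifferentiated arrays read 4.12, 4.18, 3.90, 4.14 and 3.55 on the log2 scale, in replicate order. At 12 h they read 2.36, 2.44, 3.86, 3.82 and 1.74, and at 24 h 0.82, 1.95, 1.81, 0.74 and 0.48. The 12 h arrays therefore split into replicates 3 and 4, which lay inside the undifferentiated range, and replicates 1, 2 and 5, which lay below it. All 5 arrays at 24 h lay below all 5 undifferentiated ones. The group means were 3.98 ± 0.26 (SD, n = 5), 2.84 ± 0.95 and 1.16 ± 0.67.

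At 12 h Etv4 differed from undifferentiated cells by -1.13 ± 0.39 log2, with a 95% interval from -1.95 to -0.32, and the limma adjusted p of 0.0782 missed the threshold of 0.05. From 12 h to 24 h it differed by -1.68 ± 0.39, adjusted p = 0.0596. The 12 h call depended on the suffix and on replicates 3 and 4. With the suffix as a block the same difference of -1.13 had an adjusted p of 0.00461. Without replicate 3 it was -1.39 (adjusted p = 0.0263), without replicate 4 -1.38 (adjusted p = 0.0319) and without both -1.80 (adjusted p = 0.00134). Replicates 3 and 4 were the highest 12 h arrays of Etv4, so leaving them out could only enlarge the fall. From 12 h to 24 h Etv4 was called with the suffix as a block (-1.58, adjusted p = 0.0129), with runs as a random block (-1.67, adjusted p = 0.0141), with array weights (-1.51, adjusted p = 0.0166) and without 12 h replicate 5 (-1.96, adjusted p = 0.0117). With runs as a fixed block it was not (-1.62, adjusted p = 0.0509). Etv4 at 24 h lost its call in 2 settings. With the actin ratio as a covariate the difference was -2.14, adjusted p = 0.0812, and with groups taken from the array file codes it was -1.07, adjusted p = 0.9998. The part of RNA quality in the 24 h result was not tested beyond that covariate.

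Etv5, also called ERM, is a factor that spermatogonial stem cells need for self-renewal. Its brighter probe set, 1450082_s_at, read 2.98, 3.85, 3.79, 4.84 and 3.12 in the undifferentiated arrays. It read 2.14, 2.29, 3.66, 3.27 and 1.29 at 12 h, and 0.85, 2.11, 1.72, 0.082 and 0.62 at 24 h. Replicates 3 and 4 were again the highest arrays at 12 h, and the 24 h arrays again lay below every undifferentiated array. Means were 3.71 ± 0.74 (SD, n = 5), 2.53 ± 0.95 and 1.08 ± 0.83, so the spread within the undifferentiated group was wider than for Etv4.

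At 12 h Etv5 differed by -1.18 ± 0.47 log2 (limma adjusted p = 0.120) and from 12 h to 24 h by -1.45 ± 0.47 (adjusted p = 0.147). Neither passed in this fit, which had no block and kept every array. With the suffix as a block the 12 h difference stayed at -1.18 with an adjusted p of 0.00297, without replicate 3 it was -1.47 (adjusted p = 0.0481) and without replicates 3 and 4 -1.81 (adjusted p = 0.0114). Leaving out replicates 3 and 4, the highest 12 h arrays of Etv5, could only enlarge the fall. From 12 h to 24 h Etv5 was called with the suffix as a block (-1.34, adjusted p = 0.0143), with runs as a random block (-1.44, adjusted p = 0.0439) and without 12 h replicate 5 (-1.76, adjusted p = 0.0376), and not with runs as a fixed block (-1.34, adjusted p = 0.0544). The 24 h difference of Etv5 was -1.87 with the actin covariate (adjusted p = 0.168) and -0.71 with groups from the array file codes (adjusted p = 0.9998).

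The dimmer Etv5 probe set, 1420998_at, gave the same order of groups. It read 0.89, 1.16, 1.58, 2.11 and 0.999 in undifferentiated cells, 0.50, 0.42, 1.39, 1.11 and 0.38 at 12 h, and -0.21, 0.46, 0.32, -0.25 and -0.038 at 24 h. The 24 h and undifferentiated groups did not overlap. In the fit over 12558 probe sets, where 27.9% were called at 24 h, it was lower by the test (-1.29 ± 0.25 log2, adjusted p = 0.00198). Its 24 h mean of 0.055 lay below the level used for testing. It passed only through its means of 1.35 in undifferentiated cells and 0.76 at 12 h, which favoured a lower call. Its 12 h difference of -0.59 ± 0.25 was not called (adjusted p = 0.163). The 2 Etv5 probe sets followed each other over the 15 arrays with a Pearson r of 0.972, which is a description since both read RNA of the same libraries.

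Etv1, also called ER81, behaved otherwise. Its brighter probe set, 1422607_at, read 4.13, 4.86, 4.87, 5.31 and 3.84 in undifferentiated cells, 5.31, 4.78, 4.62, 4.38 and 4.12 at 12 h, and 4.79, 4.97, 4.45, 3.54 and 3.81 at 24 h. All 3 groups overlapped. The means were 4.60 ± 0.60 (SD, n = 5), 4.64 ± 0.45 and 4.31 ± 0.62. The difference was 0.04 ± 0.32 log2 at 12 h (95% interval -0.63 to 0.71, limma adjusted p = 0.957) and -0.29 ± 0.32 at 24 h (interval -0.96 to 0.38, adjusted p = 0.508). The intervals leave room for a modest change of this signal and exclude one of the size seen for Etv4 and Etv5 at 24 h. They do not bound the Etv1 transcript alone, because the pseudogene Gm5454 may add to the signal.

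The second Etv1 probe set, 1450684_at, read 3.86, 3.73, 4.07, 4.71 and 4.25 in undifferentiated cells, 4.04, 4.24, 4.28, 4.10 and 3.96 at 12 h, and 3.79, 3.83, 3.91, 3.92 and 3.70 at 24 h. Its 24 h arrays were the tightest group of any member, at 3.83 ± 0.093 (SD, n = 5), and lay below all 12 h arrays. That difference of -0.29 log2 was not called (adjusted p = 0.427), in a comparison where 0.215% of probe sets were called in either direction. At 24 h against undifferentiated cells it differed by -0.29 ± 0.16 (adjusted p = 0.174). The 2 Etv1 probe sets had an r of 0.336 over the 15 arrays, so they shared less than the 2 Etv5 probe sets did.

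Counted over genes, 2 of 3 members were called lower at 24 h, against 19.4% of all genes, and 0 of 3 at 12 h, where 4.56% of genes were called lower and 3.3% higher. From 12 h to 24 h 0 of 3 were called, with 0.354% of genes called lower. The groups did not overlap for Etv4 and Etv5 at 24 h against undifferentiated cells, as for 16% of genes in that direction. At 12 h against undifferentiated cells no member had separate groups, against 4.74% of genes, and for the brighter probe sets none had at 24 h against 12 h, against 2.21%. The change over the second 12 h less that over the first was -0.55 ± 0.67 log2 for Etv4, -0.27 ± 0.81 for Etv5 and -0.37 ± 0.55 for Etv1. None passed in limma, nor did any other gene: 0 of 7910 (0%) were called and 688 had an unadjusted p under 0.05.

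Whether the members changed differently was tested on the difference between their log2 values within each array, with two-sided exact permutation tests over 3 pairs and 3 comparisons, adjusted over these 9. At 24 h Etv4 fell by 2.52 log2 relative to Etv1 and Etv5 by 2.34. Each of these had an exact permutation p of 0.00794, the smallest that 5 against 5 arrays allow, and an adjusted p of 0.0357. These tests, too, use the Etv1 probe set signal, to which the pseudogene Gm5454 may add. At 12 h the corresponding values were -1.17 for Etv4 (adjusted p = 0.119) and -1.22 for Etv5 (adjusted p = 0.114), which did not pass.

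With 1 probe set per gene the changes of Etv4 and Etv5 were not told apart. The change of Etv4 less that of Etv5 was 0.05 log2 at 12 h (exact permutation, adjusted p = 0.841), -0.18 at 24 h (adjusted p = 0.696) and -0.23 between the times (adjusted p = 0.276). With the mean of each gene's probe sets, which adds the dimmer Etv5 probe set, these values were -0.25 (adjusted p = 0.421), -0.85 (adjusted p = 0.0571) and -0.60 (adjusted p = 0.0179), the last of which passed. At 24 h the dimmer Etv5 probe set averaged 0.055 log2, below the filter level of 0.512. Whether that low level limited its fall was not tested. Within the 12 h group the difference between the values of Etv4 and Etv5 had an SD of 0.170 over 5 arrays, against 0.95 for either gene alone. The arrays at 12 h that were high for Etv4 were thus also high for Etv5. In undifferentiated cells the SD of that difference was 0.666, wider than at 12 h.

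**Figure D2:**
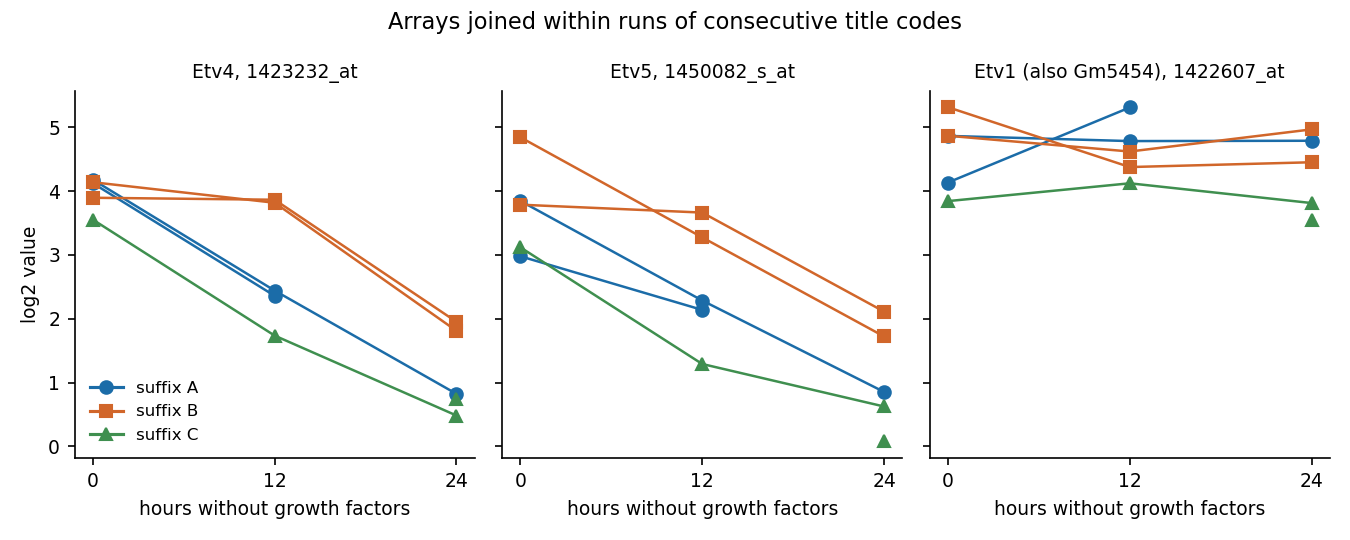
Log2 values of Etv4, Etv5 and Etv1 (vertical axis) against hours without growth factors (horizontal axis), with arrays of a run of consecutive title codes joined by a line and suffixes by colour and symbol. The 12 h points of suffix B for Etv4, at 3.86 and 3.82, stay near their undifferentiated arrays, while those of suffixes A and C lie between 1.74 and 2.44.

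The 12 h values of Etv4 followed the title code suffixes. Within suffix A its 12 h difference was -1.75 log2, within C -1.82 and within B -0.18. At 24 h the values within A, B and C were -3.33, -2.14 and -2.94. The contrast of the 12 h change in B less that in A was 1.58 ± 0.25 (limma adjusted p = 0.0191, with 1.21% of genes called) and in B less C 1.64 ± 0.30 (adjusted p = 0.0290, with 1.87% called). At 24 h the contrast of B less A was 1.19, adjusted p = 0.265. Suffix C rests on 1 array in the undifferentiated and in the 12 h group, which the fit assumes to vary like the others. Suffix B at 12 h rests on replicates 3 and 4, the closest arrays of all, which the fit counts as separate samples. If they are not separate, the errors and p-values of these contrasts are too small. The contrasts were chosen after the split of Etv4 had been seen, so they describe it and are not independent evidence.

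Etv5 at 12 h differed by -1.20 log2 within suffix A, -0.85 within B and -1.83 within C, and its contrasts between suffixes were not called. Both suffix B arrays of Etv5 at 12 h are lower than the undifferentiated array of their run, by 0.12 and 1.57 log2. At 24 h the Etv5 values within A, B and C were -2.56, -2.40 and -2.77. Etv1 differed in sign between suffixes, with 0.55, -0.59 and 0.28 at 12 h and 0.29, -0.38 and -0.16 at 24 h, and its contrasts were not called. Within the runs that hold all groups, Etv4 at 24 h was lower than its undifferentiated array by 3.36, 1.94, 2.33 and 3.07 log2, with the same sign in 4 of 4 runs.

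The genes with the highest Pearson r with each member over the 15 arrays are given as a description of libraries, in which the groups and suffixes move many genes together. For Etv4 they were Immt (r = 0.978), Nes (0.972), Septin9 (0.964), Spred2 (0.963) and Lpo (0.960). Nes encodes the progenitor filament nestin, and Spred2 an inhibitor of the Ras to ERK pathway. For Etv5 they were Slc29a1 (0.966), Smad2 (0.961), Prps2 (0.960), Ndc1 (0.959) and Tanc1 (0.953). For Etv1 they were Pou3f4 (0.925), Igf2r (0.911), Fnbp4 (0.911), Zswim6 (0.907) and Chrna4 (0.905). Etv4 and Etv5 shared 0 of these 5 genes each, although their own r was 0.952. The r of Etv1 was 0.355 with Etv4 and 0.528 with Etv5.

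Of 23 other ETS factors in the list, 22 had a named probe set and 10 passed the filter on low values. At 12 h 0 were called higher and 1 lower, and at 24 h 1 higher and 3 lower. Over all genes 3.3% were called higher and 4.56% lower at 12 h, and 12.7% and 19.4% at 24 h, so the family's 4 calls of 10 at 24 h stood near the background. Its median change was -0.11 and 0.02 log2, beside medians of 0.0045 and -0.060 over all genes tested. Erf, an ETS repressor that ERK removes from the nucleus, fell by 1.40 ± 0.27 log2 at 12 h (limma adjusted p = 0.00934) and by 1.75 ± 0.27 at 24 h (adjusted p = 0.00047). At 24 h Elk3, a ternary complex factor, fell by 1.51 ± 0.25 (adjusted p = 0.000679) and Ets2, an ERK target protein, fell by 0.74 ± 0.25 (adjusted p = 0.0308). Elf1 rose by 0.82 ± 0.21 (adjusted p = 0.00755).

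**Figure D3:**
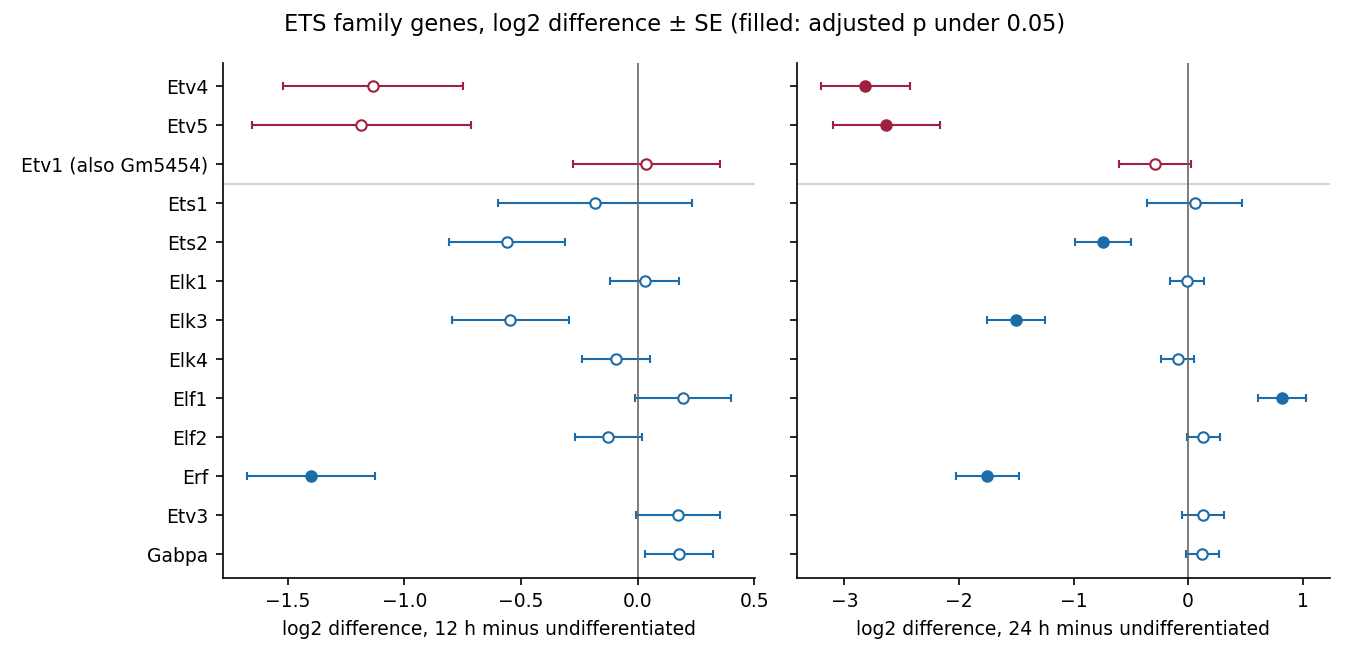
Log2 difference ± SE (horizontal axes) at 12 h and at 24 h against undifferentiated cells for the PEA3 genes and the 10 other ETS genes tested, with filled points for adjusted p under 0.05. Etv4 and Etv5 have the lowest values at 24 h, -2.82 and -2.64, ahead of Erf at -1.75.

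Transcripts of proteins known to control PEA3 factors were not called in the fit used here. In the list of 13 regulators 8 were tested and 0 were called at either time. Over all 7910 genes 7.86% were called at 12 h and 32.1% at 24 h, in either direction. Cic, the repressor, differed by -0.09 ± 0.17 log2 at 12 h and 0.02 ± 0.17 at 24 h. Cop1, of the ubiquitin ligase, differed by 0.04 ± 0.14 and -0.05 ± 0.14. At 24 h 1 regulator was called after quantile normalisation, with array weights or without 24 h replicate 5. For Dda1, a part of the Cop1 ligase, the probe set used differed by 0.10 at 24 h and another above the filter by -0.997. Atxn1, which binds Cic, was below the filter, and Atxn1l and Det1 were not analysed here. The arrays measure neither protein levels nor the place of a protein in the cell.

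In the cascade from FGF and EGF receptors to ERK, 16 of 27 genes were tested. At 12 h 2 were higher and 1 lower, where 3.3% of all genes were called higher and 4.56% lower. At 24 h 3 were higher and 3 lower, near the shares of all genes at that time (12.7% higher and 19.4% lower). The receptors moved in opposite directions. Fgfr2 was higher at 12 h by 0.99 ± 0.21 log2 (limma adjusted p = 0.0132) and at 24 h by 0.92 ± 0.21 (adjusted p = 0.0039). Fgfr3 was higher at 12 h by 0.91 ± 0.24 (adjusted p = 0.0312), with a 24 h difference of 0.12 ± 0.24 that was not called. Fgfr1 fell by 0.92 ± 0.22 at 24 h (adjusted p = 0.006), and Egfr, the receptor of EGF, fell by 1.08 ± 0.23 (adjusted p = 0.00328).

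Among the parts below the receptors, Rps6ka3, a kinase that ERK activates, fell by 0.46 ± 0.12 log2 at 12 h (limma adjusted p = 0.0349) and by 0.57 ± 0.12 at 24 h (adjusted p = 0.00309). Sos2, an exchange factor that loads Ras, rose by 0.75 ± 0.18 at 24 h (adjusted p = 0.00549). Ptpn11, the phosphatase SHP2, rose by 0.50 ± 0.19 (adjusted p = 0.0481), while its other probe set above the filter differed by -0.60. The 2 genes of Ras and Raf that were tested had no call.

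**Figure D4:**
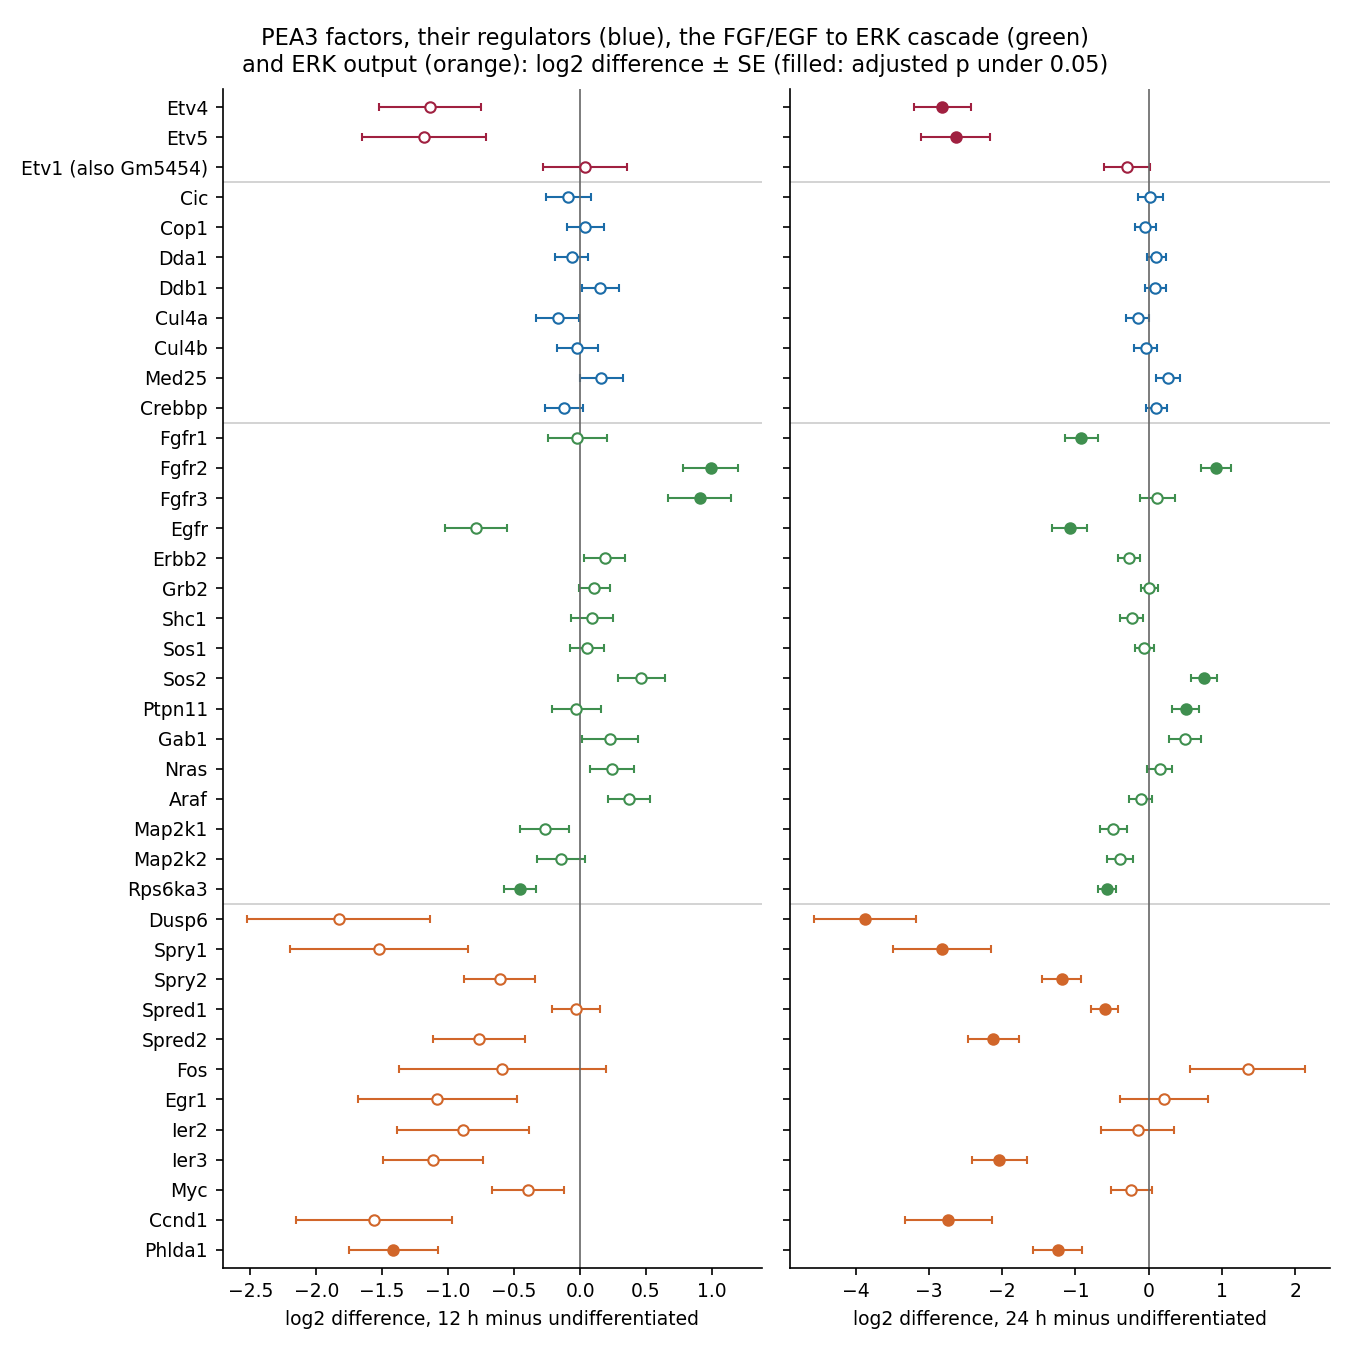
Log2 difference ± SE (horizontal axes, which differ in range) at 12 h and 24 h against undifferentiated cells for the PEA3 genes, their regulators, the receptor to ERK cascade and ERK output genes, with filled points for adjusted p under 0.05. At 24 h the output genes hold 8 called falls of 12, the regulators 0 calls of 8.

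Most of the tested transcripts that ERK activity is known to raise were lower at 24 h. Of 17 in the list 12 were tested, with 0 higher and 1 lower at 12 h and 0 higher and 8 lower at 24 h, beside 4.56% and 19.4% of all genes called lower at these times. Their median change was -0.99 and -1.22 log2, beside 0.0045 and -0.060 over all genes tested. Dusp6, a phosphatase that removes ERK's activating phosphates, fell by 3.87 ± 0.70 at 24 h (limma adjusted p = 0.000986). Of the feedback inhibitors, Spred2 fell by 2.12 ± 0.35 (adjusted p = 0.000604) and Spry1 by 2.82 ± 0.67 (adjusted p = 0.00534). Ccnd1, the cyclin of G1 phase, fell by 2.74 ± 0.59 (adjusted p = 0.00319) and Ier3, an early response gene, by 2.04 ± 0.38 (adjusted p = 0.00122). Spry2 fell by 1.19 ± 0.27 (adjusted p = 0.00413). Phlda1 was the call at 12 h, where it fell by 1.42 ± 0.34 (adjusted p = 0.0226). Fos, Egr1, Ier2 and Myc, all early transcription factors or response genes, were not called at either time. At 24 h Fos differed by 1.35 ± 0.78 and Egr1 by 0.21 ± 0.60, against the direction of the called genes. Ier2 differed by -0.15 ± 0.50 and Myc by -0.24 ± 0.27.

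The same 12 h arrays also split in this list. In 8 of 12 genes replicates 3 and 4 lay inside the undifferentiated range, and in 8 replicates 1, 2 and 5 lay below every undifferentiated array. Both held for 6. These counts were not made over all genes, so they do not set this list apart from other genes. Spred2 read 3.97, 4.62, 5.64, 5.63 and 3.81 at 12 h, against an undifferentiated range of 5.05 to 5.86. Spry1 read 0.58, 3.03, 4.98, 4.77 and 2.26, against 3.74 to 5.48. Without replicates 3 and 4, 8 output genes were called at 12 h, where 1 was called with them, while the count over all 7910 genes went from 622 to 1915. With the actin ratio as a covariate, or with groups from the array file codes, 0 genes of this list or of the other 4 lists were called at 24 h, and over all genes 34 and 0 were.

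Of 17 genes reported elsewhere as targets of PEA3 factors, 15 had a named probe set and 5 passed the filter, with 1 called higher and 0 lower at both times. Over 32 alternatives the count ran from 0 to 2 calls at 12 h and from 0 to 4 at 24 h, in either direction. The called gene, Cxcr4, a chemokine receptor that guides migrating progenitors, was higher at 12 h by 1.06 ± 0.27 log2 (limma adjusted p = 0.029) and at 24 h by 1.55 ± 0.27 (adjusted p = 0.000916). Its undifferentiated mean of 0.40 lay below the filter level of 0.512, so it was tested through the groups where it was high. The medians of the 5 tested were -0.05 and 0.02. Cell type markers also moved in the same arrays. At 24 h, where 12.7% of all genes were called higher, all 5 oligodendrocyte lineage markers tested were higher, and of 6 astrocyte markers 4 were higher and 1 lower. Of neuronal markers 2 of 3 tested were higher, of ependymal markers 2 of 2, and Pdgfrb by 1.97 log2. Pdgfrb and the ependymal marker Rsph1 averaged -0.24 and 0.43 in undifferentiated cells and 0.43 and 0.46 at 12 h. These means lay below the filter level of 0.512, so both genes passed only through their 24 h values, which favoured a higher call. Of 9 neural stem and progenitor markers 3 were higher, and 1, Nes, fell by 2.05. The mean level of the 5 oligodendrocyte markers ranged from 2.80 to 4.91 log2 in undifferentiated arrays, from 3.62 to 6.54 at 12 h and from 5.43 to 7.04 at 24 h. Their part in the PEA3 results was not tested.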

How the data were processed

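Total RNA was hybridised to Affymetrix mouse arrays of 22690 probe sets. The authors deposited 1 processed value per probe set and array, made with MAS5 per the submitters' processing notes, with a version and scaling not given in the sources used here. These deposited values were read as log10, because a 10-fold higher spike-in concentration raised them by 0.982 ± 0.0468 (SD, 15 arrays). Array medians ran from 0.287 to 0.453 on that scale. Values were multiplied by 3.32 to give log2 and used without further normalisation or pseudocount. The planned design, written for linear or log2 values, was otherwise kept. Genes were named from the platform annotation, where 20380 of 22626 probe sets other than controls had 1 symbol, 691 several and 1555 none here. The probe set with the highest mean stood for a gene, and 7910 of 12394 genes, those whose mean exceeded the 40th percentile (0.512 log2), were tested. The limma fit (version 3.58.1, R 4.3.3) had a mean per group over all 15 arrays, a trend in its moderated variances, and p-values adjusted by Benjamini-Hochberg with 0.05 as threshold. Errors of differences are its standard errors. It was tested on simulated data. All probe sets of the members were named, with the called genes of each list (the 6 of smallest p where there were more), Cic, Atxn1, Atxn1l, Cop1 and Det1, and the 5 genes most like each member. Fos, Egr1, Ier2 and Myc were named after their values were seen. Members and lists were chosen with earlier results of these data known. Alternatives changed labels, scaling, filter, probe set choice, variance model, batch terms and single arrays.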

Additional observations from a re-analysis of the deposited data

Results flagged for a closer look

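The 12 h change of Etv4 differed between groups of arrays that share a title code suffix. It was smaller in suffix B than in A by 1.58 log2 and smaller in B than in C by 1.64 log2, both called by limma. The contrasts were chosen after the split had been seen, and suffix C has 1 array in each of these groups, assumed to vary like the others. Suffix B at 12 h rests on replicates 3 and 4, the closest arrays of all, which the fit counts as separate samples. No single array stood apart from its group: of 15 checks, over 5 member probe sets in 3 groups, 0 met the limit of Dixon's test.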

How the results depend on the processing

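The falls of Etv4 and Etv5 at 24 h were called in every setting with a test except the 2 named here: groups from the array file codes (-1.07 and -0.71 log2) and the actin ratio as a covariate (-2.14 and -1.87). Leaving out single arrays kept them between -3.01 and -2.65 for Etv4 and between -2.89 and -2.35 for Etv5. At 12 h Etv4 passed with median centring (-1.13, adjusted p = 0.0416), with the suffix as a block, with title code runs as a replicate block (-1.13, adjusted p = 0.0177) or a random block (-1.13, adjusted p = 0.0187), with 12 h replicates 3 and 4 averaged (-1.38, adjusted p = 0.0289) or left out (-1.80). Etv5 at 12 h passed with the suffix block (-1.18), the replicate block (-1.18, adjusted p = 0.00963), the random block (-1.18, adjusted p = 0.0298) and without replicates 3 and 4 (-1.81). Leaving out single arrays gave -1.39 to -0.86 for Etv4, called without 12 h replicate 3 or 4, and -1.47 to -0.87 for Etv5, called without replicate 3. From 12 h to 24 h Etv4 passed with array weights (-1.51), the suffix block (-1.58) and the random block (-1.67), and Etv5 with the suffix block (-1.34) and the random block (-1.44). Single arrays left out gave -1.96 to -1.43 and -1.76 to -1.17, both called without 12 h replicate 5. Etv1 was called in no setting, with -0.59 within suffix B at 12 h and 0.29 within suffix A at 24 h, while Etv4 was at -0.18 within B at 12 h.

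Between 12 h and 24 h, the change of Etv4 less Etv1 passed with the mean of a gene's probe sets (-1.37) and ranged from -1.64 to -1.04 with single arrays left out, called without 12 h replicate 1. Etv5 less Etv1 ranged from -1.39 to -0.83, called without the same array, and at 12 h from -1.51 to -0.96, called without replicate 3. Etv4 less Etv5 passed with the mean of probe sets (-0.60) and ranged from -0.37 to -0.17, called without 24 h replicate 4. The cause was not tested. Of 622 genes called at 12 h, the count was 0 by file codes, 65 without suffix C, 170 with the actin covariate, 404 with 2 groups only, 935 after quantile normalisation, 1161 with the replicate block, 1458 with the random block, 1476 with the suffix block, 1915 without replicates 3 and 4, and 174 to 1004 with single arrays left out. Of 2537 at 24 h it was 0 by file codes, 34 with the actin covariate and 1114 without suffix C. Of 33 from 12 h to 24 h it was 0 by file codes, and otherwise 1 to 649. No paired analysis beyond the runs was possible because replicate numbers were given in accession order. All 25 called changes of list genes kept their sign after centring and quantile normalisation. The number of arrays limits the precision.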
